A study of Mus musculus with 16 samples.

Results

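The nuclear genes of the respiratory chain and of ATP synthase were followed in the mPFC of mice with and without Kdm7a knockdown. They were chosen by gene symbol among the known genes of the deposited table: the subunits of complexes I to IV (symbols starting with Nduf, Sdh, Uqcr and Cox4 to Cox8), cytochrome c (Cycs), cytochrome c1 (Cyc1) and the subunits of ATP synthase (Atp5), together with the Ndufaf factors that assemble complex I. Of 26625 entries in the table, 96 matched, and 92 of them had enough reads to be tested. By complex these were 44 genes of complex I, 4 of complex II, 9 of complex III, 1 for cytochrome c, 20 of complex IV and 18 of ATP synthase. The 4 that could not be tested were Cox7b2, Cox8b, Cox8c and a separate entry (ENSMUSG00000116933) that carries the same symbol as Atp5o, with at most 12 counts in any mouse.

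All 16 animals were male C57BL/6 mice, 8 to 10 weeks old, and all had received an adeno-associated virus in the mPFC. The Kdm7a-shRNA virus carries a short hairpin RNA against Kdm7a under the U6 promoter, which is active in most cell types, with an EGFP reporter under the CMV promoter, and the Ctrl mice received the control virus. In the 10 days of conditioned place preference training, morphine (10 mg/kg) was given on alternate days or saline was given throughout, and tissue was taken on day 17, which is day 7 of withdrawal. The groups were Ctrl + Saline (n = 3 mice), Ctrl + Morphine (n = 4), Kdm7a-shRNA + Morphine (n = 4) and Kdm7a-shRNA + Saline (n = 5). The replicates are different mice, and the tissue was measured in bulk, so each value averages over cell types.

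The respiratory chain sits in the inner mitochondrial membrane. Complexes I and II take electrons from NADH and succinate, complex III passes them to the carrier cytochrome c, and complex IV hands them to oxygen, while complexes I, III and IV pump protons that drive ATP synthase. Most subunits are encoded in the nucleus and imported, and a few core subunits are encoded in mitochondrial DNA, so each complex other than complex II is built from both genomes. Neurons depend heavily on this pathway to power ion pumping and synaptic transmission. Nuclear respiratory factors and the coactivator PGC-1alpha are known regulators of many of these nuclear genes.

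Between 6596991 and 12418112 reads were counted per mouse, and the 96 genes took 3.09% to 3.92% of them. Levels are given as normalized CPM, read counts scaled by the library total and its TMM factor (CPM is a count rescaled to a common library size), in which each read is 1 cDNA molecule after PCR, and errors cover the spread between mice. Kdm7a itself had lower means in the knockdown mice, 9.42 and 7.72 in the Ctrl + Saline and Ctrl + Morphine groups against 5.55 and 4.94 in the knockdown groups given saline and morphine. Its log2 fold change passed under saline (-0.76, adjusted p = 0.0153) and missed the threshold under morphine (-0.67, adjusted p = 0.0506). The summed level of 6 neuron markers was similar in all groups (means of 2046 to 2403), while 6 microglia markers summed to 732 and 600 in the Ctrl groups and to 2030 and 1464 in the Kdm7a-shRNA groups under saline and morphine. The summed markers of choroid plexus and of muscle were at most 7.70 and 20.6 in any mouse. Ctrl + Saline replicates 2 and 3 held the lowest value of all mice for 8.84% and 9.88% of all tested entries and the highest for 8.17% and 12.6%, and the saline calls of the members and gene lists were also made without them.

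Of the members, 77 genes had a promoter in the RefSeq table for GRCm38.p6, each a window from 250 bases before to 50 bases after the transcription start. The letters GCGCATGC, part of the motif of nuclear respiratory factor 1 (NRF1), occurred on either strand in 13 of the 77 (16.9%) and in 3.05% of all 27025 genes with such a window. The letters AAGATGGCG, part of the YY1 motif, were in 8 (10.4%, against 1.64% of all genes), and CCGGAAGT, an ETS motif that GABPA is known to bind, in 5 (6.49% against 4.31%). None of these letter strings contains another, and a match is a description of the sequence and not a binding site. The windows of 4 genes are shown. Cox5a, Uqcrfs1 and Ndufab1 were lowest in mostly the same mice, as described below. They hold none of the 3 strings, as is so for most of the 77. Cycs, the gene of cytochrome c, holds the NRF1 string, written in capitals. Each window is given from 5′ to 3′ on the gene's strand: chr9:57520982-57521281 on the plus strand for Cox5a, and, on the minus strand, chr13:30545267-30545566 for Uqcrfs1, chr7:122101799-122102098 for Ndufab1 and chr6:50566520-50566819 for Cycs.
Cox5a: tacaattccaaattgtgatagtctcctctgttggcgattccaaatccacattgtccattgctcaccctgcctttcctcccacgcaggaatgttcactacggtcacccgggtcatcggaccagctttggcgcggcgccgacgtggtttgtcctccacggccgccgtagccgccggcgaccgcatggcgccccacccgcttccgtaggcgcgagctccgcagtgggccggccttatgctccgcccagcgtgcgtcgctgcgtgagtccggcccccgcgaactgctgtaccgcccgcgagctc
Uqcrfs1: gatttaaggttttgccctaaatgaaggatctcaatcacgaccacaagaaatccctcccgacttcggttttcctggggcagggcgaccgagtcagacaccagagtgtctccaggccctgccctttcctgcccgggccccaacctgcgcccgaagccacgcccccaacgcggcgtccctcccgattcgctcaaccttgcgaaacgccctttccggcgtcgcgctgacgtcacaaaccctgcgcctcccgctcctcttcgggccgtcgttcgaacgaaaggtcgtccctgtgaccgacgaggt
Ndufab1: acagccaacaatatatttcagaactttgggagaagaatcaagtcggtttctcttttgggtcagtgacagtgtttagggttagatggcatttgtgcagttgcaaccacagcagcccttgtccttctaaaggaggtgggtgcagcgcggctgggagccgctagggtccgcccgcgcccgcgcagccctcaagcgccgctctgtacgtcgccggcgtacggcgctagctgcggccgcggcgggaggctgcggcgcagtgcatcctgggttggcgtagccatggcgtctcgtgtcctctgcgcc
Cycs: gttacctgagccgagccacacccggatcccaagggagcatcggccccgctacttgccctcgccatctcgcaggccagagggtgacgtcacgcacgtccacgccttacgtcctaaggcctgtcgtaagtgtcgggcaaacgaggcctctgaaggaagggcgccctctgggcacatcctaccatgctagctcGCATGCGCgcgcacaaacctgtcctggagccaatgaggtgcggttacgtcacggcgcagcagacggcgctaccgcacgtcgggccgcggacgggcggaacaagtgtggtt

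As a set, the nuclear genes differed little between the groups after TMM scaling. Their summed level in normalized CPM was 35531 ± 2115 (SD, n = 3) in Ctrl + Saline mice, 35492 ± 1710 (SD, n = 4) in Ctrl + Morphine mice, 34964 ± 1211 (SD, n = 5) in Kdm7a-shRNA + Saline mice and 35181 ± 2308 (SD, n = 4) in Kdm7a-shRNA + Morphine mice. The ranges of the 4 groups overlapped, and the group means lay closer together than the mice within a group. In bulk tissue, fewer cells of a type and less RNA per cell cannot be told apart. The median SD of log2 CPM within a group was 0.116 for the 92 tested members and 0.330 for all 18826 tested entries. These sets were not matched by read count. The tested members with the fewest reads had 0.347 (Cox4i2), 0.378 (Ndufaf6) and 0.471 (Ndufa4l2).

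**Figure D1:**
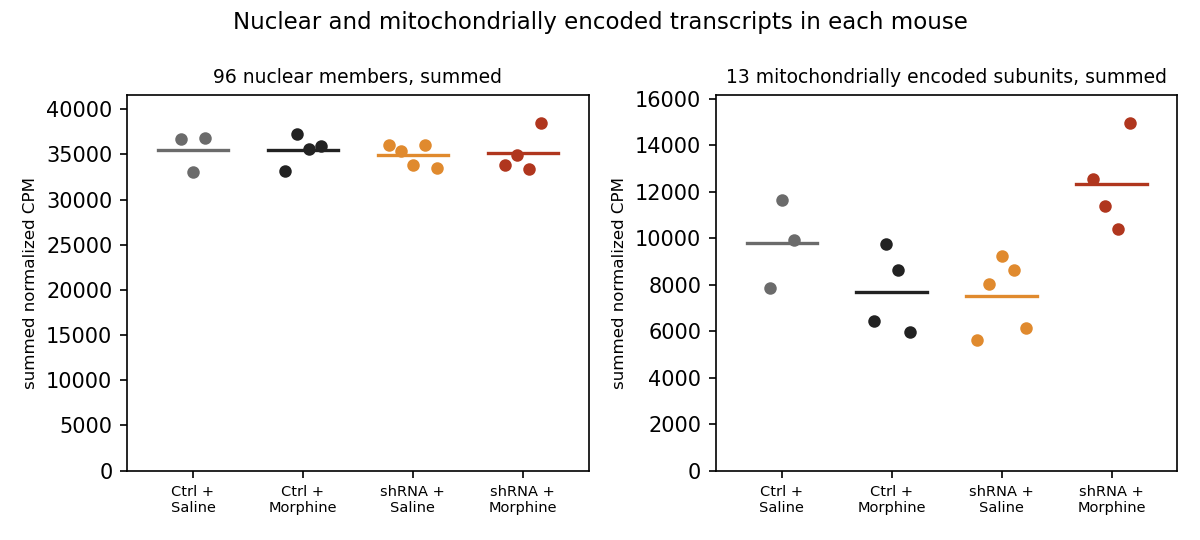
Summed normalized CPM (linear axis from 0) of the 96 nuclear members (left) and of the 13 mitochondrially encoded subunits (right) in each mouse, with points for mice and lines for group means. The nuclear sums lie between 33090 and 38501 in all mice, and the mitochondrially encoded sums are 10408 or more in the Kdm7a-shRNA + Morphine group and 9748 or less in the Ctrl + Morphine and Kdm7a-shRNA + Saline groups.

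The first comparison asked how knockdown changed these genes during morphine withdrawal, Kdm7a-shRNA + Morphine against Ctrl + Morphine mice (n = 4 each). Only Cox6a2 passed, with an adjusted p under 0.05 in edgeR's quasi-likelihood test and a change of 1.5-fold or more either way. This was 1 of 92 members (1.09%), beside 7.69% of all tested entries (2.86% as higher and 4.83% as lower) and 4.64% of the tested known genes, and DESeq2's Wald test also passed 1. Without Kdm7a-shRNA + Morphine replicate 2 the count was 5, with Cox7a1 as higher and Cox5a, Cyc1 and Uqcrfs1 as lower. The median log2 fold change of the members was 0.02, with 48 positive and 44 negative, against 0.00 over all tested entries. Of the members, 80.4% had a log2 fold change within 0.25 of 0, against 46.8% of all tested entries. These shares were not matched by read count either. With the adjusted p alone, 3 members (3.26%, beside 9.26% of all, 3.93% as higher and 5.34% as lower) were past the threshold: Cox6a2 and Cox7a2l as higher and Ndufb4 as lower.

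The second comparison asked the same of the saline mice, Kdm7a-shRNA + Saline (n = 5) against Ctrl + Saline (n = 3). Here 8 of 92 members passed (8.70%, beside 16.7% of all tested entries, 7.43% as higher and 9.31% as lower). The 6 that rose were Cox5a, Uqcrfs1, Cyc1, Ndufab1, Cox6a2 and Cox4i2, and the 2 that fell were Ndufb4 and Atp5f1. The median log2 fold change of the members was -0.05, with 37 positive and 55 negative. By the adjusted p alone 19 members were past the threshold (20.7%, beside 20.3% of all), 8 as higher (9.69% of all) and 11 as lower (10.6% of all), and 33 had an unadjusted p under 0.05 (34.7% of all). DESeq2 passed 8 as well. The count rested on the few Ctrl + Saline mice: it was 11 without replicate 1, 5 without replicate 2, 3 without replicate 3, and 0 when both were left out, a fit chosen after the data had been seen in which the lone Ctrl + Saline mouse is assumed to vary like the other groups. In that fit the log2 fold changes of Cox6a2 (1.84, adjusted p = 0.0554), Ndufb4 (-0.73, adjusted p = 0.0833), Atp5f1 (-0.50, adjusted p = 0.246) and Cox4i2 (1.38, adjusted p = 0.249) were of similar size to those with all mice, and those of the other 4 are given with these genes. By the adjusted p alone 0 members were then past the threshold (16 with an unadjusted p under 0.05), and 0.546% of all tested entries passed. The adjusted p was then 0.121 for Cox7a2l, 0.144 for Ndufa7, 0.201 for Ndufs4, 0.224 for Sdhb, 0.367 for Uqcrb, 0.445 for Cycs and 0.566 for Ndufv1.

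**Figure D2:**
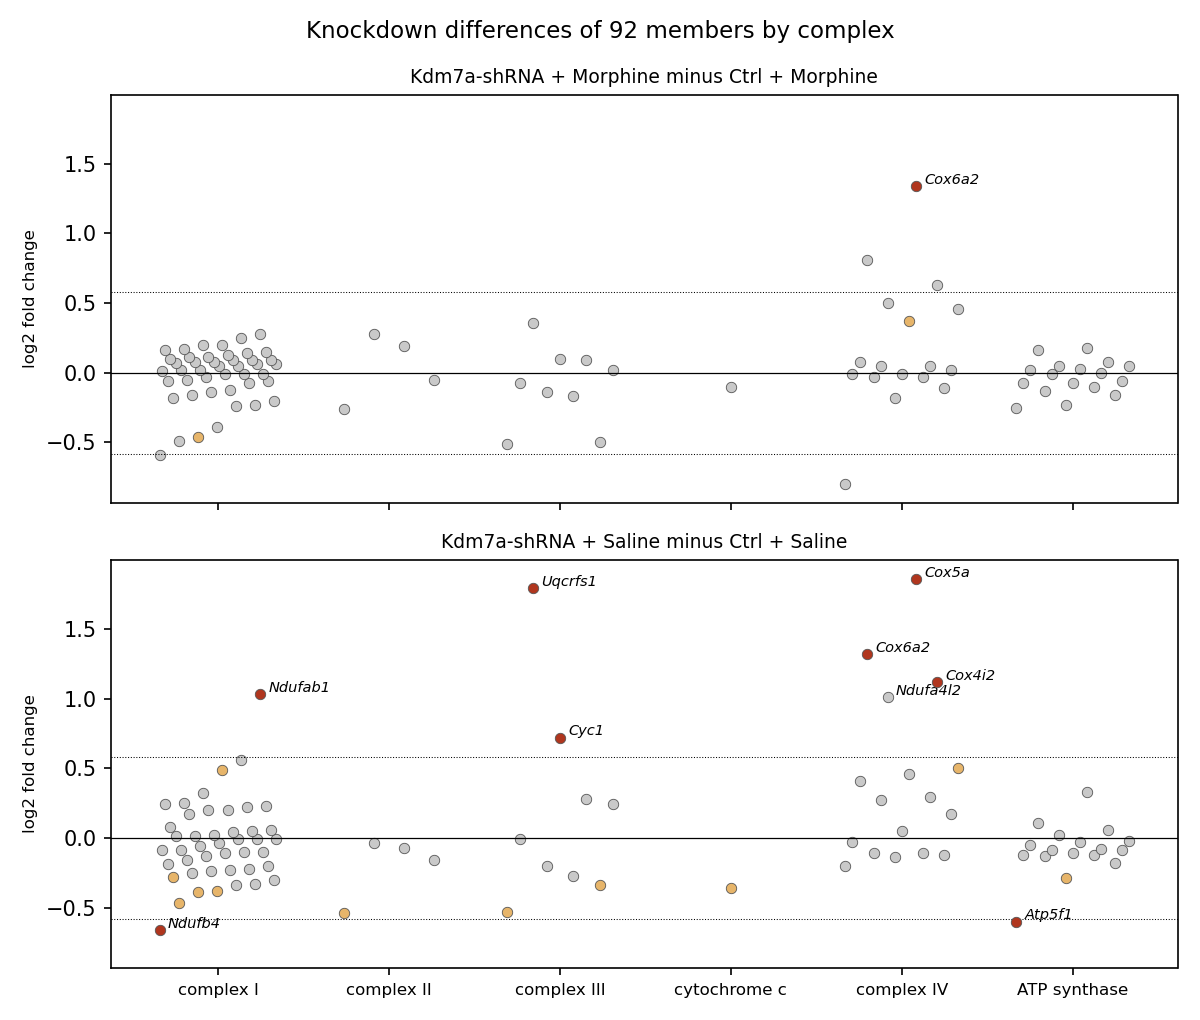
Log2 fold change (vertical axis) of each of the 92 tested members by complex, for knockdown under morphine (top) and under saline (bottom), with dotted lines at a 1.5-fold change. Red points passed, tan points had an adjusted p under 0.05 with a smaller fold change, and grey points did neither. Most members lie near 0 in both panels, 1 passed under morphine and 8 passed under saline.

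Complex I, the NADH dehydrogenase through which most electrons enter, had 44 tested members, among them 7 core and 9 accessory subunits of the matrix arm, 19 accessory subunits of the membrane arm and 8 assembly factors. With knockdown under morphine 0 of the 44 passed by edgeR's test (6 had an unadjusted p under 0.05), with log2 fold changes from -0.59 to 0.28 and a median of 0.03. Under saline 2 passed (4.55%, beside 16.7% of all tested entries), Ndufab1 as higher and Ndufb4 as lower, with a median of -0.05. The 7 core matrix arm subunits, which hold the flavin and the iron-sulfur clusters, had a median log2 fold change of 0.06 under morphine and -0.11 under saline. Ndufv1, which carries the flavin and binds NADH, had a log2 fold change of 0.09 under morphine (adjusted p = 0.636) and of -0.38 under saline (adjusted p = 0.0225). Ndufs1, the large core subunit with several iron-sulfur clusters, had log2 fold changes of -0.06 (adjusted p = 0.728) and -0.23 (adjusted p = 0.0966).

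Ndufb4, a membrane arm subunit, was lower in every knockdown mouse than in every control mouse of the same treatment. It was 177, 156 and 178 normalized CPM in the Ctrl + Saline mice and 109, 100, 93.1, 129 and 106 in the Kdm7a-shRNA + Saline mice. In the Ctrl + Morphine mice it was 165, 174, 169 and 175, and in the Kdm7a-shRNA + Morphine mice 118, 130, 103 and 146. The groups with different viruses did not overlap in either treatment. Ndufb4 fell under saline (log2 fold change -0.66, standard error 0.119, adjusted p = 0.00156 by edgeR). Under morphine its difference, -0.46 (log2, standard error 0.117, adjusted p = 0.0213), lay below the 1.5-fold threshold. In the saline comparison, it passed in each of the 8 fits that left out 1 mouse.

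Other complex I members were lower under saline by the adjusted p alone. Ndufa7, an accessory subunit of the matrix arm, was 345, 319 and 343 in the Ctrl + Saline mice and 212 to 255 in the Kdm7a-shRNA + Saline mice, with no overlap (log2 fold change -0.47, adjusted p = 0.00404). Under morphine the difference was -0.24 (adjusted p = 0.120). Ndufs4, an accessory subunit whose loss causes a mitochondrial brain disease in mice, had a log2 fold change of -0.39 under saline (adjusted p = 0.00937) and of -0.14 under morphine (adjusted p = 0.357). Of the 8 assembly factors, 0 passed in either comparison, and Ndufaf8, chosen after its values were seen, was past the adjusted p alone under saline (0.49, adjusted p = 0.0260).

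Complex II, succinate dehydrogenase, is wholly nuclear-encoded and is also an enzyme of the citric acid cycle. None of its 4 members passed in either knockdown comparison, with 2 and 1 at an unadjusted p under 0.05 under morphine and saline by edgeR's test. Sdhb, the iron-sulfur subunit, was 157, 159 and 173 normalized CPM in the Ctrl + Saline mice and 116, 97.1, 96.8, 141 and 110 in the Kdm7a-shRNA + Saline mice. Every knockdown mouse was below every control mouse, and the knockdown difference came to -0.54 (log2, standard error 0.112, adjusted p = 0.00396), short of 1.5-fold, which it reached without Kdm7a-shRNA + Saline replicate 4 (-0.63) or Ctrl + Saline replicate 1 (-0.60). Under morphine the groups did not overlap either, at 147 to 156 against 120 to 133, and the log2 fold change was -0.26 (adjusted p = 0.142). Sdha, the flavin-carrying catalytic subunit, had log2 fold changes of 0.19 under morphine (adjusted p = 0.218) and -0.16 under saline (adjusted p = 0.252). The membrane anchors Sdhc and Sdhd had log2 fold changes of 0.28 (adjusted p = 0.0863) and -0.05 (adjusted p = 0.789) under morphine.

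Complex III, the cytochrome bc1 complex, had 9 members, and 2 of them rose under saline: Uqcrfs1, the Rieske iron-sulfur protein, and Cyc1, the cytochrome c1 heme protein that donates electrons to cytochrome c. They were 22.2% of the members of this complex, beside 16.7% of all tested entries (7.43% as higher). Both are catalytic subunits and are described with Cox5a below. Under morphine 0 of the 9 passed (2 with an unadjusted p under 0.05). The core proteins Uqcrc1 and Uqcrc2, which carry no redox centre, had log2 fold changes of -0.27 (adjusted p = 0.0852) and -0.34 (adjusted p = 0.0404) under saline and of -0.14 (adjusted p = 0.424) and 0.02 (adjusted p = 0.936) under morphine. Uqcrb, a small subunit near the quinone site, had a log2 fold change of -0.53 under saline (adjusted p = 0.0150), below the fold threshold. It was 124 to 142 normalized CPM in the Ctrl + Saline mice, and the Kdm7a-shRNA + Saline mice were at 74.1, 124, 99.9, 83.4 and 75.7, with replicate 2 level with the lowest control mouse. It passed without that mouse (-0.66, adjusted p = 0.00285) or without Ctrl + Saline replicate 1 (-0.61, adjusted p = 0.0172). The subunits of complex III thus had differences of both signs under saline, from -0.53 to 1.79 on the log2 scale.

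Cytochrome c (Cycs), the soluble carrier between complexes III and IV whose promoter is printed above, was 188, 185 and 209 normalized CPM in the Ctrl + Saline mice and 144, 152, 133, 184 and 143 in the Kdm7a-shRNA + Saline mice. All knockdown mice were below all control mice, by a narrow gap for replicate 4. The difference was -0.36 (log2, standard error 0.113, adjusted p = 0.0321), below the fold threshold, and under morphine it was -0.10 (adjusted p = 0.613).

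Complex IV, cytochrome c oxidase, had 17 tested members, of which 1 passed under morphine and 3 under saline, each as higher. These were 5.88% and 17.6%, beside 7.69% and 16.7% of all tested entries (2.86% and 7.43% as higher). The 11 subunits used in most tissues had median log2 fold changes of -0.01 under morphine and -0.03 under saline, and of these Cox5a passed, under saline. The 5 tested paralogs that are restricted to some tissues or conditions (Cox4i2, Cox6a2 and Cox7a1, with Cox6b2 and Ndufa4l2 named after their values were seen) had positive log2 fold changes in both comparisons, from 0.46 to 1.34 under morphine and from 0.05 to 1.32 under saline. Of these, Cox6a2 passed under both treatments and Cox4i2 under saline.

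Cox6a2, the form of subunit 6A of heart and skeletal muscle that is also known from parvalbumin interneurons, rose with knockdown under both treatments. The gene lies at chr7:128205435-128206387 on the minus strand (GRCm38). It was 5.55, 9.08 and 9.41 normalized CPM in the Ctrl + Saline mice and 14.4, 24.0, 25.5, 13.9 and 22.9 in the Kdm7a-shRNA + Saline mice. In the Ctrl + Morphine mice it was 7.69, 7.36, 6.33 and 6.42, and in the Kdm7a-shRNA + Morphine mice 18.8, 14.3, 23.6 and 13.6. Every knockdown mouse was above every control mouse of either treatment. Its log2 fold change under saline, 1.32 (standard error 0.252, adjusted p = 0.00222), was close to that under morphine, 1.34 (standard error 0.238, adjusted p = 0.00420), and they differed by 0.02 (95% confidence interval -0.69 to 0.72, adjusted p = 0.991). It passed in each of the fits that left out 1 mouse in both comparisons. Its partner Cox6a1, the form of most tissues, had log2 fold changes of 0.08 (adjusted p = 0.830) and 0.41 (adjusted p = 0.166) under morphine and saline, and was at 129 in Ctrl + Saline replicate 2 against 323 to 375 in the other mice.

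The summed parvalbumin interneuron markers were, like Cox6a2, higher in the knockdown mice of each treatment. The summed level of Pvalb and Kcnc1 was 65.0 to 73.9 in the Ctrl + Saline mice, 57.3 to 90.8 in Ctrl + Morphine, 86.3 to 127 in Kdm7a-shRNA + Saline and 98.9 to 141 in Kdm7a-shRNA + Morphine. Pvalb itself passed as higher under saline (log2 fold change 0.68, adjusted p = 0.0174) and under morphine (0.81, adjusted p = 0.0118), and neither marker was at 0. The summed level of the 3 muscle markers lay between 9.88 and 20.6 in all mice, and the ranges of the 4 groups overlapped. Among the Kdm7a-shRNA + Morphine mice the interneuron sum was highest in replicate 1 (141), and Cox6a2 was highest in replicate 3 (23.6). The microglia sums of replicates 1 to 4 of that group (1231, 1048, 2867 and 710) ranked as Cox6a2 did. In the Ctrl + Morphine mice they did not. In replicates 1 to 5 of Kdm7a-shRNA + Saline, Cox6a2 was 14.4, 24.0, 25.5, 13.9 and 22.9. The interneuron sums there were 93.3, 112, 127, 86.3 and 112, and the microglia sums 1396, 2105, 3046, 1110 and 2491. Both sums, like Cox6a2, were highest in replicate 3 and lowest in replicate 4 of that group. The part of the interneuron or microglia markers in the Cox6a2 result was not tested.

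Cox4i2, a form of subunit 4 known from lung and from low oxygen, had few reads, 10 to 56 counts per mouse. It was 1.32, 1.85 and 1.59 normalized CPM in the Ctrl + Saline mice and 3.33, 3.34, 4.62, 2.59 and 3.62 in the Kdm7a-shRNA + Saline mice. The groups did not overlap, and it rose by 1.12 (log2, standard error 0.305, adjusted p = 0.0164), but it did not pass without Ctrl + Saline replicate 1 or 3. Under morphine it was 1.93 to 2.68 against 1.74 to 4.81, which overlap, and the log2 difference was 0.50 (adjusted p = 0.271). Cox4i1, the usual form, had group means of 1838 to 2064 normalized CPM, with log2 fold changes of 0.17 (adjusted p = 0.194) and 0.05 (adjusted p = 0.772) under saline and morphine. The summed endothelial markers Cldn5, Pecam1 and Flt1 were 29.8 to 58.6 in the Ctrl + Saline mice and 61.6 to 91.4 in the Kdm7a-shRNA + Saline mice. Their part in the Cox4i2 result was not tested. Cox7a1, the muscle form of subunit 7A, had a log2 fold change of 0.81 under morphine (adjusted p = 0.109) and passed there only without Kdm7a-shRNA + Morphine replicate 2 (1.04, adjusted p = 0.0327), while Cox7a2, its partner, had -0.03 (adjusted p = 0.895).

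Cox7a2l, described as a factor for supercomplexes of complexes III and IV, was narrowly spread and higher in every knockdown mouse. Only its RNA was measured here, not supercomplexes. It was 311, 318 and 316 normalized CPM in the Ctrl + Saline mice and 455, 452, 445, 445 and 425 in the Kdm7a-shRNA + Saline mice. In the Ctrl + Morphine mice it was 309, 350, 325 and 301, and in the Kdm7a-shRNA + Morphine mice 412, 410, 451 and 390. The 9 knockdown mice were above the 7 control mice without overlap. The log2 fold changes, 0.50 under saline (standard error 0.0852, adjusted p = 0.00120) and 0.37 under morphine (standard error 0.0813, adjusted p = 0.0106), were below 1.5-fold, so it did not pass.

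ATP synthase, which turns the proton gradient into ATP, had 17 tested members. With knockdown under morphine 0 passed by edgeR's test (1 with an unadjusted p under 0.05), with log2 fold changes between -0.25 and 0.18. Under saline 1 fell, Atp5f1 (5.88%, beside 9.31% of all tested entries as lower). Of the 17, 13 had negative log2 fold changes, with a median of -0.09. Atp5f1, the b subunit of the peripheral stalk that holds the catalytic head still, was 1167, 1208 and 1398 normalized CPM in the Ctrl + Saline mice and 836, 727, 704, 1047 and 844 in the Kdm7a-shRNA + Saline mice. The groups did not overlap, and replicate 4 was the highest of the knockdown group. It fell by 0.60 under saline (log2, standard error 0.122, adjusted p = 0.00339), and its difference under morphine was -0.25 (adjusted p = 0.191). The change lay close to 1.5-fold, and it passed in 5 of the 8 fits that left out 1 mouse, not without Kdm7a-shRNA + Saline replicate 2 or 3 or Ctrl + Saline replicate 3.

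The catalytic head of ATP synthase had small differences between groups. Its alpha subunit Atp5a1 had log2 fold changes of 0.05 (adjusted p = 0.799) under morphine and -0.08 (adjusted p = 0.579) under saline, and the beta subunit Atp5b had -0.07 (adjusted p = 0.769) and 0.11 (adjusted p = 0.579). Atp5d, the delta subunit of the central stalk, had -0.16 (adjusted p = 0.572) and 0.33 (adjusted p = 0.159). The 3 genes Atp5g1, Atp5g2 and Atp5g3 encode the same mature c subunit of the rotor ring with different import signals. Atp5g1 had a log2 fold change of -0.29 under saline (adjusted p = 0.0446, below the fold threshold), while Atp5g2 had 0.06 (adjusted p = 0.703) and Atp5g3 had -0.05 (adjusted p = 0.793). The small membrane subunit Atp5k had -0.18 (adjusted p = 0.223).

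**Figure D3:**
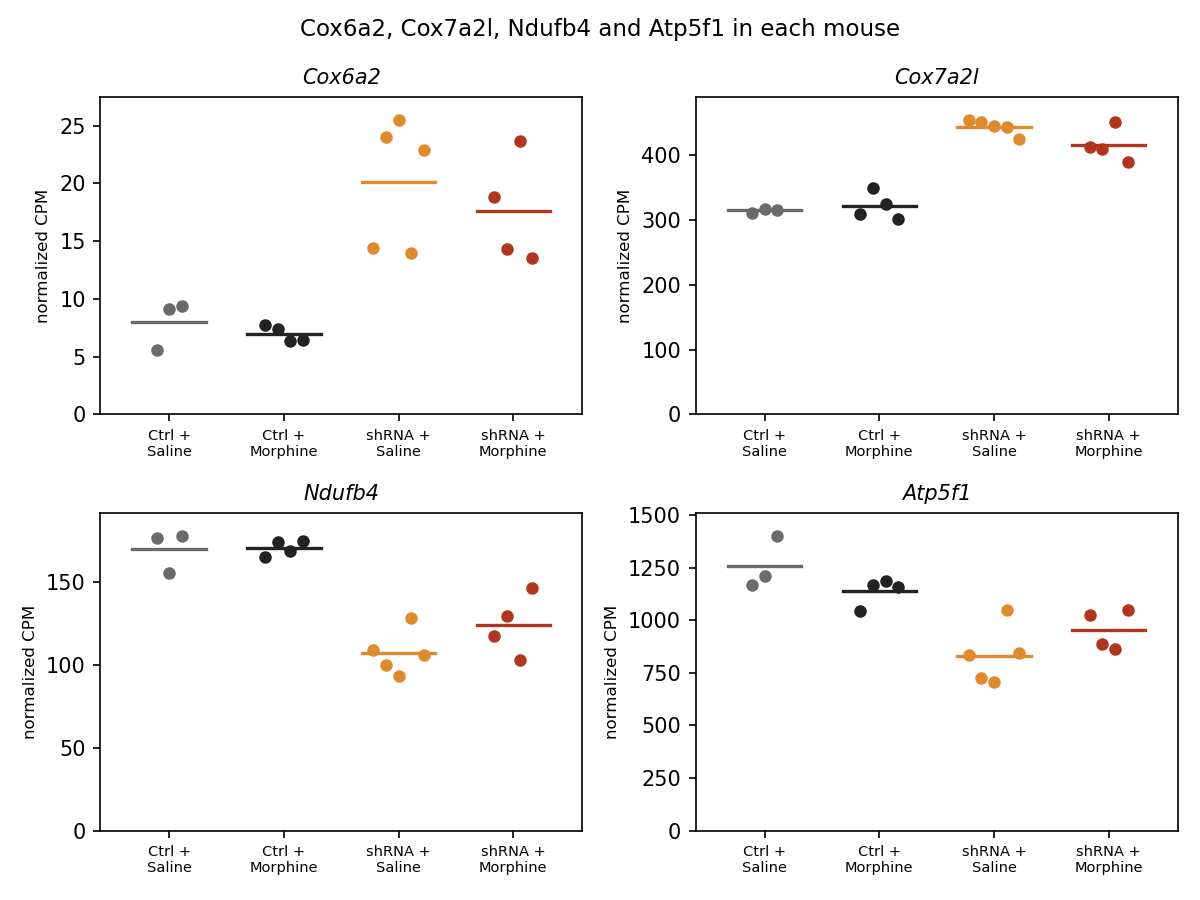
Normalized CPM (linear axes from 0) of Cox6a2, Cox7a2l, Ndufb4 and Atp5f1 in each mouse (points) with group means (lines). Cox6a2 and Cox7a2l are higher and Ndufb4 is lower in the knockdown mice of both treatments without overlap, and Atp5f1 separates the viruses under saline, while under morphine its groups overlap.

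Markers of other cells differed within the Kdm7a-shRNA + Saline group as some of the members that were lower did. Replicate 4 had the lowest microglia marker sum of its group (1110, the others 1396 to 3046) and the highest neuron marker sum (2729, the others 1719 to 2260). The same mouse had the highest Atp5f1, Ndufb4, Sdhb and Cycs of its group, while Uqcrb was 83.4 in it and up to 124 in the others. All 9 knockdown mice but Kdm7a-shRNA + Morphine replicate 4 (710) had a microglia sum above that of every Ctrl mouse (391 to 835). The 5 astrocyte markers summed to 267 to 499 in the Ctrl mice and to 386 to 1008 in the knockdown mice, and the 5 oligodendrocyte markers to 6814 to 12707 and to 8157 to 19397. The part of the cell markers in the members' differences was not tested.

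The comparisons of morphine with saline asked what withdrawal changed under each virus. Between Ctrl + Morphine and Ctrl + Saline mice, 0 of 92 members passed by edgeR's test, as did 0.00% of all tested entries. At an unadjusted p under 0.05 there were 6 members, beside 11.7% of all entries, and DESeq2's Wald test passed 3, Cox5a, Cyc1 and Ndufab1, all as higher. Without Ctrl + Saline replicate 1, edgeR passed 2, Cyc1 (1.14, adjusted p = 0.00653) and Ndufab1 (1.73, adjusted p = 7.47e-05), and without any other mouse it passed 0. The median log2 fold change of the members was -0.05. Between Kdm7a-shRNA + Morphine and Kdm7a-shRNA + Saline mice, 0 of 92 passed by edgeR's test (0.00531% of all tested entries and 0.00706% of the known genes), 8 had an unadjusted p under 0.05 (7.02% of all), and DESeq2 passed 0. The median was 0.03, and 90.2% of the members had a log2 fold change within 0.25 of 0. Over all tested entries, not matched by read count, the share was 64.4%. Without Kdm7a-shRNA + Morphine replicate 2, Cox5a passed as lower (-1.71, adjusted p = 0.0344).

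The interaction asked whether the knockdown difference under morphine was unlike that under saline. It passed for 0 of 92 members by edgeR's test, beside 0.0850% of all tested entries (0.0744% as lower), and 14 members had an unadjusted p under 0.05 (10.7% of all tested entries). The median was 0.08, with 60 positive and 32 negative, and 0.01 over all tested entries. The members farthest from 0 were Cox5a (-2.66, standard error 0.535, adjusted p = 0.0641), Uqcrfs1 (-2.28, standard error 0.629, adjusted p = 0.156), Ndufab1 (-1.62, standard error 0.360, adjusted p = 0.0772) and Cyc1 (-1.23, standard error 0.274, adjusted p = 0.0779). The result for these 4 depended on the fit. DESeq2 passed Cox5a, Ndufab1 and Cyc1, edgeR passed all 4 without Kdm7a-shRNA + Morphine replicate 2 and Cox5a, Ndufab1 and Cyc1 without Ctrl + Saline replicate 1, while Cox5a passed without Ctrl + Morphine replicate 3 and with no filter on low counts. Without both Ctrl + Saline replicates 2 and 3, 0 passed.

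**Figure D4:**
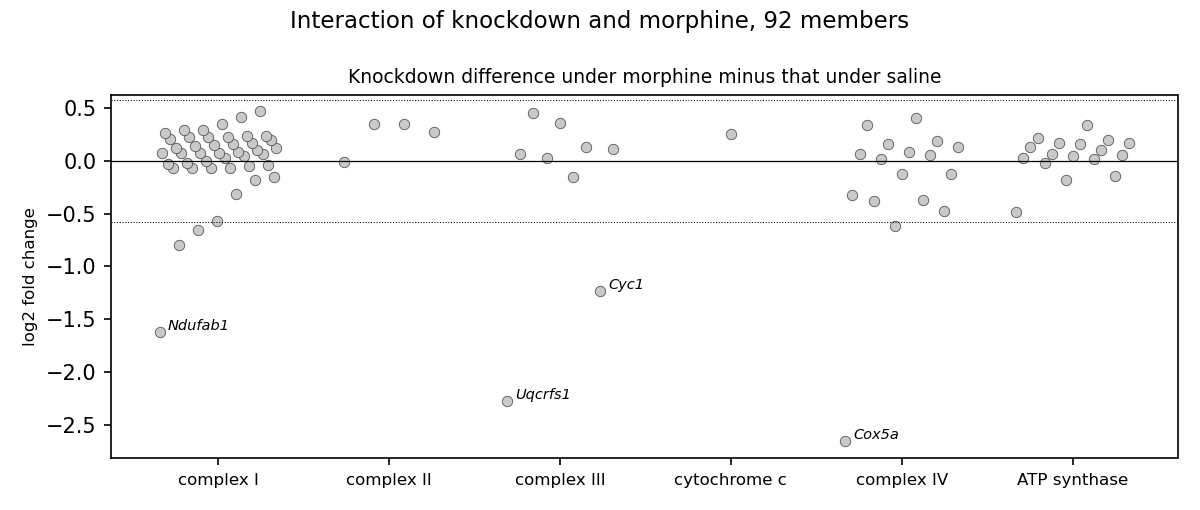
Knockdown difference under morphine minus that under saline (log2, vertical axis) of each of the 92 tested members by complex, with dotted lines at 1.5-fold. None of the points passed in edgeR's test, and Cox5a, Uqcrfs1, Ndufab1 and Cyc1 lie lowest, from -2.66 to -1.23.

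Cox5a, the nuclear subunit of complex IV that binds at its matrix side, had an SD of log2 CPM over all 16 mice of 0.922, and of 0.579 within groups. It was 64.0, 37.5 and 29.7 normalized CPM in the Ctrl + Saline mice, 173, 88.7, 85.5 and 188 in Ctrl + Morphine, 165, 156, 154, 165 and 154 in Kdm7a-shRNA + Saline, and 50.0, 162, 48.0 and 47.9 in Kdm7a-shRNA + Morphine. The Ctrl + Saline mice and 3 of the 4 Kdm7a-shRNA + Morphine mice were low, and Kdm7a-shRNA + Morphine replicate 2 was level with the Kdm7a-shRNA + Saline mice. Under saline Cox5a rose with knockdown by 1.86 (standard error 0.401, adjusted p = 0.00461) with no overlap, and under morphine the difference was -0.80 (standard error 0.360, adjusted p = 0.172), or -1.46 (adjusted p = 0.00838) without that replicate 2.

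Uqcrfs1, which carries electrons within complex III, was low in the same mice, and its SD of log2 CPM within groups was 0.685. It was 22.3, 16.4 and 13.5 in the Ctrl + Saline mice, 55.0, 29.9, 22.8 and 83.3 in Ctrl + Morphine, 87.0, 53.7, 67.9, 40.4 and 51.4 in Kdm7a-shRNA + Saline, and 19.5, 73.9, 21.7 and 20.4 in Kdm7a-shRNA + Morphine. Replicate 2 again stood above the other Kdm7a-shRNA + Morphine mice. Its log2 fold change under saline was 1.79 (standard error 0.473, adjusted p = 0.0144) and under morphine -0.50 (adjusted p = 0.503), or -1.22 (adjusted p = 0.0476) without that mouse.

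Cyc1 was 202, 122 and 101 normalized CPM in the Ctrl + Saline mice, 274, 219, 231 and 284 in Ctrl + Morphine, 225, 227, 222, 263 and 226 in Kdm7a-shRNA + Saline, and 147, 247, 157 and 157 in Kdm7a-shRNA + Morphine. Ctrl + Saline replicate 1 lay above the other mice of its group, and Kdm7a-shRNA + Morphine replicate 2 above those of its own. On the log2 scale Cyc1 rose by 0.72 under saline (standard error 0.199, adjusted p = 0.0180), and the difference under morphine was -0.51 (adjusted p = 0.0949), or -0.71 (adjusted p = 0.0256) without that replicate 2. Under saline it did not pass without Ctrl + Saline replicate 2 or 3.

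Ndufab1, the mitochondrial acyl carrier protein that is both a complex I subunit and a carrier in fatty acid synthesis, was 158, 59.6 and 52.5 in the Ctrl + Saline mice, 206, 173, 165 and 216 in Ctrl + Morphine, 207, 190, 190, 170 and 162 in Kdm7a-shRNA + Saline, and 106, 155, 130 and 114 in Kdm7a-shRNA + Morphine. Ctrl + Saline replicates 2 and 3 had less than the lowest mouse of any other group, and replicate 1 was near the other groups. Ndufab1 rose by 1.03 (log2, standard error 0.264, adjusted p = 0.0121) under saline, and the difference under morphine was -0.59 (adjusted p = 0.140). Under saline, Ndufab1 and Uqcrfs1 did not pass without Ctrl + Saline replicate 2 or without replicate 3, and without both of these mice the log2 fold changes were 0.20 for Ndufab1 (adjusted p = 0.726), 1.41 for Uqcrfs1 (adjusted p = 0.443), 0.19 for Cyc1 (adjusted p = 0.778) and 1.30 for Cox5a (adjusted p = 0.367).

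**Figure D5:**
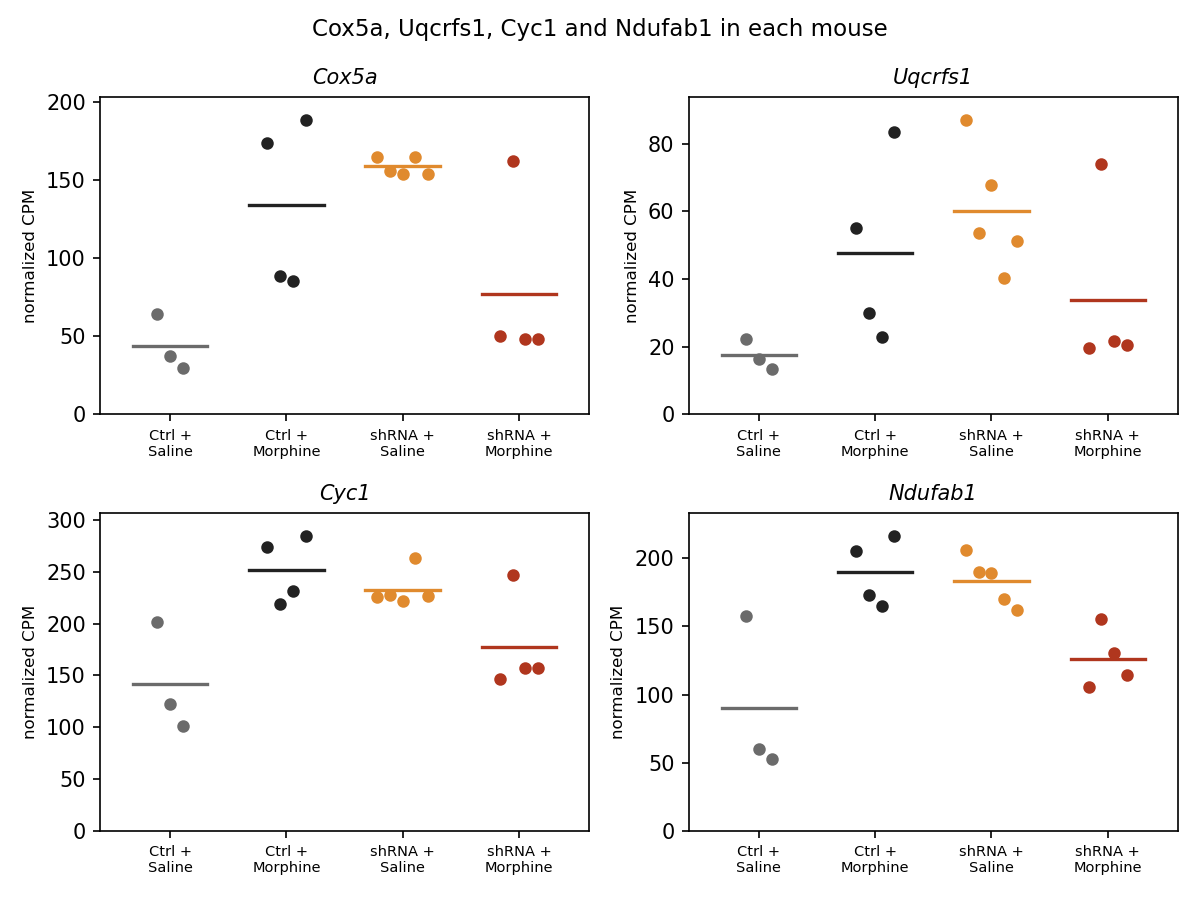
Normalized CPM (linear axes from 0) of Cox5a, Uqcrfs1, Cyc1 and Ndufab1 in each mouse (points) with group means (lines). In each gene, Ctrl + Saline replicates 2 and 3 are the lowest mice, and Kdm7a-shRNA + Morphine replicate 2 is the highest of its group, at 162 for Cox5a against 47.9 to 50.0 in the others.

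The 6 lowest mice were the same for Cox5a, Uqcrfs1 and Cyc1, namely the 3 Ctrl + Saline mice and Kdm7a-shRNA + Morphine replicates 1, 3 and 4. Ndufab1 and Ndufaf8 shared 5 of these 6. Over all tested entries 43, or 0.228%, had the same 6 lowest mice as Cox5a, which is itself counted, and a further 338, or 1.80%, shared 5. Cox5a, Uqcrfs1, Cyc1 and Ndufab1 were singled out as the members with the most negative interaction. That goes with low values in Ctrl + Saline and Kdm7a-shRNA + Morphine mice. The shared order is therefore a description of these genes and not a separate test. The first 100 bases of the annotated transcripts had a GC content of 72.0% for Cox5a, 65.0% for Uqcrfs1, 78.0% for Cyc1 and 73.0% for Ndufab1. Across 14103 genes, which are not independent replicates, the log2 fold change correlated with transcript GC content at Pearson's r = 0.21 for knockdown under saline, 0.28 for morphine under control virus and -0.29 for the interaction. The part of base composition in the 4 genes' levels was not tested.

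Ctrl + Saline replicate 2 was also by itself low for other members. Besides Cox6a1 above, and chosen after their values were seen, Ndufb2 was 43.0 in this mouse against 160 to 229 normalized CPM in the others, and Cox5b was 311 against 685 to 1044. It was the lowest of the 16 mice for 15 of the 92 members, beside 8.84% of all tested entries. Ctrl + Morphine replicate 1 was the lowest for 18 (beside 5.67%), Kdm7a-shRNA + Saline replicate 3 was the lowest for 17 (beside 7.79%), and Ctrl + Saline replicate 3 and Kdm7a-shRNA + Morphine replicate 4 were each the highest for 20 (beside 12.6% and 6.16% of all). Without Ctrl + Saline replicate 1, Ndufb2 (0.98, adjusted p = 0.0333) and Cox5b (0.68, adjusted p = 0.0405) passed as higher with knockdown under saline.

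The mitochondrially encoded subunits, the partners of these proteins in complexes I, III, IV and ATP synthase, differed more between the groups in their sum. The 13 genes summed to 9795 ± 1901 normalized CPM (SD, n = 3) in Ctrl + Saline mice, 7690 ± 1797 (SD, n = 4) in Ctrl + Morphine, 7523 ± 1576 (SD, n = 5) in Kdm7a-shRNA + Saline and 12329 ± 1960 (SD, n = 4) in Kdm7a-shRNA + Morphine. The Kdm7a-shRNA + Morphine mice (10408 to 14960) were all above the Ctrl + Morphine mice (5941 to 9748). With knockdown under morphine 3 of the 13 passed, all as higher (23.1%, beside 2.86% of all tested entries as higher). The median log2 fold change was 0.41. With knockdown under saline 2 passed as lower (15.4%, beside 9.31% of all as lower), with a median of -0.20. The interaction passed for 0 of them by edgeR's test (7 with an unadjusted p under 0.05), with a median of 0.66.

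mt-Nd4, a proton-pumping subunit of complex I, was 3163 ± 901 (SD, n = 3), 1967 ± 573 (SD, n = 4), 2078 ± 471 (SD, n = 5) and 3708 ± 655 (SD, n = 4) normalized CPM in the Ctrl + Saline, Ctrl + Morphine and knockdown groups (saline, then morphine). It rose with knockdown under morphine by 0.91 (standard error 0.221, adjusted p = 0.0174), and its log2 fold change under saline was -0.61 (adjusted p = 0.0625). mt-Nd2, another complex I subunit, had 0.39 under morphine (adjusted p = 0.0712) and 0.52 under saline (adjusted p = 0.0142), short of the fold threshold. mt-Co1, the catalytic core of complex IV, and mt-Nd4l, a small complex I subunit, both chosen after their values were seen, passed in both comparisons and in opposite directions: mt-Co1 at 1.04 under morphine and -0.91 under saline, mt-Nd4l at 1.17 and -0.91. Their interaction did not pass (adjusted p = 0.0719 for mt-Co1 and 0.0730 for mt-Nd4l). In group means, mt-Co1 was 1616, 1063, 859 and 2189 and Cox5a, of the same complex, was 43.7, 134, 159 and 77.0, in the same order of groups. The Cox5a mean of 77.0 joins 162 in replicate 2 with 47.9 to 50.0 in the others. The 11 complex IV subunits of most tissues had median log2 fold changes of -0.01 and -0.03 with knockdown under morphine and saline. Without Ctrl + Saline replicates 2 and 3, the saline differences were -0.09 for mt-Nd4, -0.33 for mt-Co1, -0.45 for mt-Nd4l and 0.41 for mt-Nd2. The interaction was then 1.38 for mt-Co1 and 1.63 for mt-Nd4l, in a fit that leaves 1 mouse in that group. These nuclear and mitochondrial values come from the same libraries, so they are not separate observations.

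Assembly factors outside the symbol rule bring subunits and cofactors together. Of 42, 41 were tested, and with knockdown under morphine 1 passed as higher and 1 as lower, while under saline 5 passed as higher. These were 4.88% and 12.2%, beside 7.69% and 16.7% of all tested entries (7.43% as higher under saline). Tmem70, which assembles the ATP synthase rotor ring and complex I, was 28.0, 19.4 and 23.7 normalized CPM in the Ctrl + Saline mice, 62.5, 46.2, 46.7 and 72.4 in Ctrl + Morphine, 64.8, 67.7, 72.9, 77.7 and 65.9 in Kdm7a-shRNA + Saline, and 27.7, 53.7, 34.3 and 33.4 in Kdm7a-shRNA + Morphine. As with Cox5a, the Ctrl + Saline mice were low and Kdm7a-shRNA + Morphine replicate 2 was the highest of its group. Tmem70 rose under saline by 1.56 (standard error 0.207, adjusted p = 0.000235), and it was the assembly factor that passed in the interaction (-2.17, standard error 0.278, adjusted p = 0.00705). Acad9, a complex I assembly factor, rose under saline by 0.69 (standard error 0.141, adjusted p = 0.00336). Without Ctrl + Saline replicates 2 and 3 neither passed: the saline differences were 1.30 for Tmem70 (adjusted p = 0.0860) and 0.41 for Acad9 (adjusted p = 0.330), and the interaction of Tmem70 was -1.90 (adjusted p = 0.911).

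Genes of neighbouring pathways are counted for context, where 7.69% of all tested entries passed under morphine and 16.7% under saline. Of 16 citric acid cycle enzymes, 0 passed with knockdown under morphine by edgeR's test (2 with an unadjusted p under 0.05) and 1 under saline, Suclg2, a subunit of the GTP-forming succinyl-CoA ligase (1.20, adjusted p = 0.0136). Pdhb, a pyruvate dehydrogenase subunit, was lower below the fold threshold (-0.55, adjusted p = 0.0244). Of 16 regulators of mitochondrial genes, 0 passed under morphine (1 with an unadjusted p under 0.05), and under saline Gabpb1, a partner of GABPA, rose (0.79, adjusted p = 0.00937) and Ppargc1a, which encodes PGC-1alpha, fell (-0.80, adjusted p = 0.0295). Ppargc1a was 6.48, 7.71 and 5.17 normalized CPM in the Ctrl + Saline mice and 2.76 to 4.49 in the Kdm7a-shRNA + Saline mice, without overlap. Of 16 glycolysis enzymes, 0 passed under morphine (2 with an unadjusted p under 0.05), and under saline Hk1, the hexokinase bound to brain mitochondria, rose (0.59, adjusted p = 0.0140) and Tpi1, triosephosphate isomerase, fell (-0.64, adjusted p = 0.0150). Without Ctrl + Saline replicates 2 and 3 no gene of these lists passed under saline, with 1.45 for Suclg2 (adjusted p = 0.185), 0.43 for Gabpb1 (adjusted p = 0.518), -0.82 for Ppargc1a (adjusted p = 0.341), 0.48 for Hk1 (adjusted p = 0.312) and -0.54 for Tpi1 (adjusted p = 0.396).

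Many of these mRNAs are short, and the authors had removed reads under 500 bases. The annotated transcripts of 8 of the 96 members were shorter than this, 6 of them among the tested ones. These 6 had a median log2 fold change of 0.15 with knockdown under morphine and 0.04 under saline, against 0.02 and -0.02 for the 45 members of at least 500 and under 1000 bases and -0.01 and -0.10 for the 41 longer ones. Over all tested genes with a length, the medians for the same classes were 0.19, 0.09 and 0.04 under morphine and 0.20, 0.19 and 0.09 under saline. Each length is that of the longest of a gene's best-ranked protein-coding transcripts, which need not be the form sequenced. Atp5g1, for instance, was counted at 4715 bases. The levels of the shortest members rest on the reads that passed the 500-base filter, and the part of transcript length in the differences was not tested.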

How the data were processed

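RNA of the mPFC of 16 mice was sequenced as full-length Nanopore cDNA. The authors removed reads under 500 bases and ribosomal reads, mapped full-length reads to mm10 with minimap2, collapsed them into consensus transcripts and deposited raw read counts per gene, with the transcripts of a gene summed, beside the CPM of the same counts. The deposited CPM equalled each count rescaled by its column total to within 4.99e-06. The submitters' processing notes also name edgeR 3.8.6.

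The deposited counts were tested with edgeR 4.0.16 (limma 3.58.1, R 4.3.3): TMM scaling, filterByExpr on the 4 groups, a coefficient per group and the quasi-likelihood test, with Benjamini-Hochberg adjustment over all 18826 tested entries. A gene passed at an adjusted p under 0.05 with a fold change of at least 1.5. All fold changes are log2 and come from this fit of 5 comparisons, and those between comparisons that share a control group are not independent. DESeq2 1.42.0 was run as an alternative, together with other scaling, filters, thresholds, gene sets and samples. The script was tested on simulated counts. No 2 libraries of a group agreed within sampling noise (chi-square per degree of freedom of 8.33 or more).

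The members follow from the symbols. Members and gene lists were chosen with earlier results of these data known. Named members are, for each complex, the up to 4 with the smallest adjusted p over the knockdown comparisons and the interaction, every member that passed for morphine or the interaction, a set of core subunits (among them Ndufv1, Ndufs1, Sdha, Uqcrc1, Cox4i1, Atp5a1 and Atp5b) and the paralog groups of Cox4, Cox6a, Cox7a and Atp5g. Of the other lists, the 2 genes with the smallest adjusted p are named, and any other gene is said to be chosen after its values were seen. A named member is not reported here.

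In the comparison of morphine with saline under the control virus, deviations of mice with the same replicate number correlated at 0.25, 0.18 and 0.14. Mice with different numbers were not compared, so whether a shared number goes with a shared deviation was not tested. The numbers come from the sample titles, and the labels do not say what they mark. Promoter windows are from RefSeq (GRCm38.p6), and gene lengths from GENCODE. Protein sequences were not used here. Reads were counted without molecular identifiers.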

Additional observations from a re-analysis of the deposited data

Results flagged for a closer look

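In each group of 4 or 5 mice, the values of the 33 named members were searched for a mouse far from the others (the gap to its nearest neighbour over the range of the group, against Dixon's critical value). Of 99 such tests 8 were past it, and chance gives about 1 in 20. Kdm7a-shRNA + Morphine replicate 2 was the highest of its group for Cox5a (162 normalized CPM, the others 47.9 to 50.0), Cyc1 (247, the others 147 to 157) and Uqcrfs1 (73.9, the others 19.5 to 21.7). Kdm7a-shRNA + Saline replicate 4 was the highest for Atp5a1 (527, the others 407 to 433) and Cyc1 (263, the others 222 to 227). Kdm7a-shRNA + Morphine replicate 4 was the highest for Atp5g1 (1014, the others 789 to 822), and replicate 3 of that group was the lowest for Ndufs1 (180, the others 199 to 202). Ctrl + Morphine replicate 4 was the highest for Ndufs4 (180, the others 173 to 174). The Ctrl + Saline group, with 3 mice, was too small for this search.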

How the results depend on the processing

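No named member's value that passed reversed its direction under any alternative run. The members' medians lay near 0 and changed sign for knockdown under morphine (-0.09 to 0.05) and morphine under knockdown (-0.01 to 0.06). The other gene lists were refitted only without Ctrl + Saline replicates 2 and 3. The count of members that passed for knockdown under morphine, 1, became 2 with scaling by library size alone, 3 with the adjusted p alone and 2 with only the compared groups fitted. For knockdown under saline, 8 became 19 with the adjusted p alone and 0 without Ctrl + Saline replicates 2 and 3, a setting chosen after seeing the data that leaves 1 mouse assumed to vary like the other groups. DESeq2 gave 3 where edgeR gave 0 for morphine under control virus and for the interaction, and the interaction gave 1 with no filter on low counts. The causes were not tested. Leaving out 1 mouse in turn gave 1 to 5 for knockdown under morphine, 3 to 11 for knockdown under saline, 0 to 2 for morphine under control virus, 0 to 1 for morphine under knockdown and 0 to 4 for the interaction.

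Scaling by library size alone moved the median of all genes by -0.11 for knockdown under morphine and by -0.13 under saline, and the members' median to -0.09 and -0.18. With the replicate number as a block, the counts were 1, 9, 0, 0 and 0 for knockdown under morphine and saline, morphine under control virus and knockdown, and the interaction. Outside morphine under control virus, deviations of mice with the same number correlated at -0.11 to 0.14 for knockdown under morphine. The correlations were -0.10 to 0.16 for knockdown under saline and -0.16 to 0.60 for morphine under knockdown. Depth limits most the tested members with the fewest reads, Ndufa4l2 (8 to 46 counts per mouse), Cox4i2 (10 to 56) and Ndufaf6 (11 to 33), and the 4 members that were not tested.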
